A study of Mus musculus with 21 samples.

Results

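The 9 genes described here encode the subunits of the AMPA receptors (Gria1, Gria2, Gria3 and Gria4) and of the kainate receptors (Grik1, Grik2, Grik3, Grik4 and Grik5). They were chosen by gene symbol from a table of 24984 mouse genes. All 9 passed the filter on low counts, which left 16959 genes for testing. Both receptor families are tetrameric cation channels opened by glutamate. AMPA receptors carry most of the fast excitatory current at cortical synapses, and neurons add or remove them when network activity changes over hours. Kainate receptors sit on both sides of the synapse, where they tune transmitter release and add a slower postsynaptic current.

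Nascent RNA of the 9 genes was measured by BrU-seq, which labels newly made RNA with bromouridine and sequences only the labelled molecules. The samples were primary cortical cultures of CD1 mice at day 17 in vitro, with no genetic change named in the labels. Every culture was first held for 30 min in DMSO, the solvent, or in 25 µM MM401, a peptidomimetic that keeps the histone methyltransferase MLL1 from binding WDR5. Bicuculline-methiodide at 40 µM, a GABA-A receptor blocker that raises network firing, or sterile water followed. All cultures carried 2 mM bromouridine in the final 30 min. The DMSO groups were bicuculline at 1 h, bicuculline at 4 h and water at 4 h, and the MM401 groups were bicuculline and water at 1 h and at 4 h. A DMSO water group at 1 h was not analysed here, so the 1 h response in DMSO was taken against water at 4 h and time differs in that comparison. The design gave 3 biological replicates of mixed sex per group.

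The third MM401 water library at 4 h held 316741 counts, 0.503% of the median of the other libraries, and was left out, so that group had 2 libraries. The other 20 libraries held between 49886348 and 87939384 counts in genes. Replicate 1 of DMSO with water at 4 h differed from the rest of its group: genes of at least 100 kb took 62.2% of its counts, against 58.0% and 56.9% in replicates 2 and 3. Those of replicates 2 and 3 were the lowest shares of the 20 libraries. The DMSO bicuculline libraries had 61.0% to 62.5%, and the 2 MM401 water libraries at 4 h had 61.4% and 61.3%. Since 8 of the 9 receptor genes are at least 100 kb long, receptor gene calls that change without replicate 1 are given below beside the result. All 4 neuronal markers (Rbfox3, Snap25, Syt1 and Map2) were detected in every library, and their summed level in DMSO with water at 4 h was 5006 CPM ± 591 (SD, n = 3). CPM are counts scaled to a common library total after TMM scaling, which rests on the genes that change least between libraries. Markers of astrocytes (1383 CPM, summed over 6 genes), GABAergic neurons (339 CPM, 5 genes) and excitatory cortical neurons (549 CPM, 5 genes) were also present, and none of these genes was at 0, so the cultures held several cell types.

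Levels were compared between the receptor genes as CPM per kb of gene, because whole gene spans were counted and long genes gather more reads. In DMSO with water at 4 h, Gria2 stood first with 10.1 CPM per kb ± 1.28 (SD, n = 3), 3.78 times the next gene. Gria2 encodes GluA2, the subunit that makes edited AMPA receptors nearly impermeable to calcium. Gria1 followed with 2.68, Gria4 with 2.22, Grik2 with 1.85 and Gria3 with 1.74 CPM per kb, and neighbours in this stretch of the order had overlapping libraries. Grik5 stood at 1.25, Grik3 at 0.642, Grik1 at 0.473 and Grik4 at 0.351 CPM per kb, each without overlap with the gene before it. The main kainate subunit gene by this measure was therefore Grik2, whose product GluK2 forms channels alone or with GluK4 and GluK5, the subunits that need a partner to reach the surface. After 4 h of bicuculline in DMSO the order differed. Grik2, at 3.21 CPM per kb, stood next to Gria2 at 14.0, Gria1 came after Gria4 at 2.39, and Grik1 at 0.707 passed Grik3 at 0.549 CPM per kb.

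**Figure D1:**
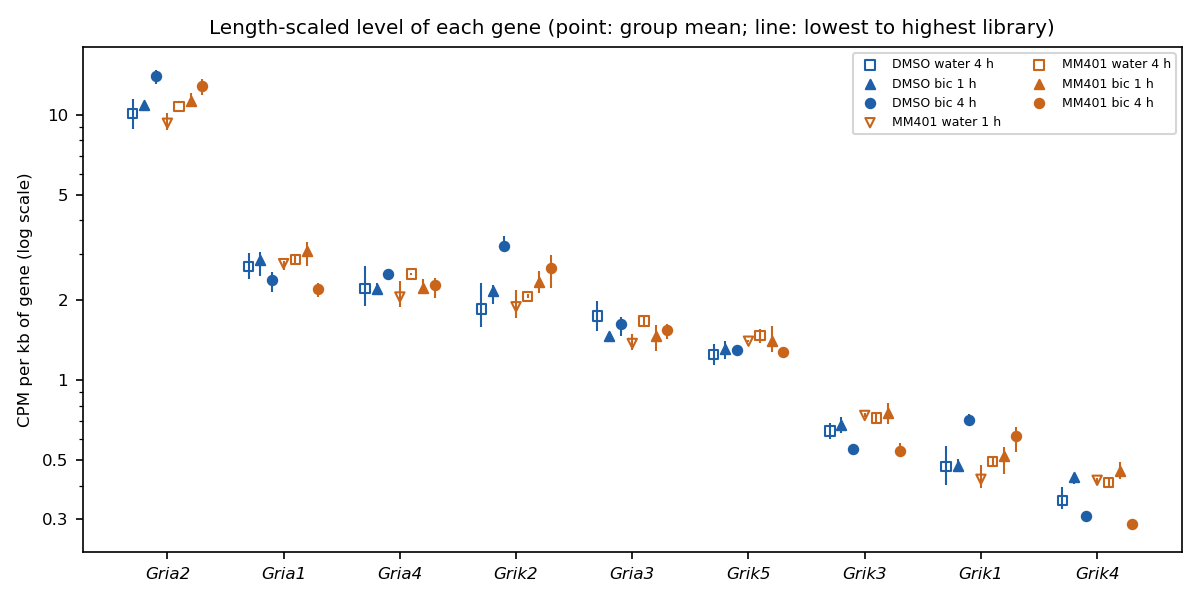
Length-scaled nascent RNA level (CPM per kb of gene, log scale) of each of the 9 receptor genes in each of the 7 groups; points are group means, lines run from the lowest to the highest library, blue is DMSO and orange MM401, and open symbols are water. Gria2 lies above all other genes in every group, and Grik4 is the lowest.

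On mm10 the AMPA receptor genes lie at chr11:57011617-57330244 (Gria1, plus strand), chr3:80681449-80802835 (Gria2, minus), chrX:41400853-41678601 (Gria3, plus) and chr9:4417892-4796234 (Gria4, minus). The kainate receptor genes lie at chr16:87895896-88290265 (Grik1, minus), chr10:49093680-49788766 (Grik2, minus), chr4:125490830-125714173 (Grik3, plus), chr9:42520411-42944371 (Grik4, minus) and chr7:25009850-25072369 (Grik5, minus). Lengths ran from 62.5 kb for Grik5 to 695 kb for Grik2. The span of Grik1 holds the antisense gene 4930590A17Rik, which covers 10.9% of it and had a mean count of 0.661% of that of Grik1. Reads of the 2 cannot be told apart if strand was not used in the counting, which is not stated. Grik3 contains the microRNA genes Mir692-2 and Mir692-3, both at 0 counts, and no other receptor gene overlapped a gene of the table.

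Sequence upstream of the RefSeq start (GRCm38.p6, the same assembly as mm10) was matched for 6 of the 9 genes: Gria2, Gria4, Grik2, Grik3, Grik4 and Grik5. The 250 bases before the start are shown for 4 of them, because the first 2 had higher and the last 2 lower nascent RNA after 4 h of bicuculline in DMSO. Capitals mark GGGCGG on either strand, the core of the GC box to which Sp1 binds. The windows are chr3:80802836-80803085 (Gria2, minus strand), chr10:49788755-49789004 (Grik2, minus), chr4:125490446-125490695 (Grik3, plus) and chr9:42944372-42944621 (Grik4, minus), all written 5′ to 3′ along the gene's strand.
Gria2: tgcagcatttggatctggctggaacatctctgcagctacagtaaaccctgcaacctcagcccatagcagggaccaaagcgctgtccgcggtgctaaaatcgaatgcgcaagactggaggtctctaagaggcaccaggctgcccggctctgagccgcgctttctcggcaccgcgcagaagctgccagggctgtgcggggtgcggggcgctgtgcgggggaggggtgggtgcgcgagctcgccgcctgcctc
Grik2: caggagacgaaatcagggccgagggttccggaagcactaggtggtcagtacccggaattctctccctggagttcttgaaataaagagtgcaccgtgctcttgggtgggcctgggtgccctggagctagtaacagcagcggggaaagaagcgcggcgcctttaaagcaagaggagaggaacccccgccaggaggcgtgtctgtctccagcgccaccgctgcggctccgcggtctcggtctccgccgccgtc
Grik3: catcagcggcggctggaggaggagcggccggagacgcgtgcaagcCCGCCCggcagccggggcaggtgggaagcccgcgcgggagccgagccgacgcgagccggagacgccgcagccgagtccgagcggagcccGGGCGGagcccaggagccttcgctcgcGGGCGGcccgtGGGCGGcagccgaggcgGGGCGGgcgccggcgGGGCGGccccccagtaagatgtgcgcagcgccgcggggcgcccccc
Grik4: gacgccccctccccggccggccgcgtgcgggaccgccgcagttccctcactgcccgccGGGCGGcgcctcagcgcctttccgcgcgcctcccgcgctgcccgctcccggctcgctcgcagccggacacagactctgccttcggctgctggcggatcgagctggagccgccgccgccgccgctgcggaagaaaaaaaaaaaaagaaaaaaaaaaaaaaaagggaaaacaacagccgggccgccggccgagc
Grik3 held 6 matches to the GC box, at 46 to 205 bases before the start, Grik4 held 1, and Gria2 and Grik2 held none. Of the genes not shown, Grik5 held 2 and Gria4 none. Of all 32851 windows in the table, 32.7% held at least 1 match. The windows were rich in G and C, with 64.8% for Gria2, 62.8% for Grik2, 82% for Grik3 and 69.6% for Grik4 against a median of 52.4% over all windows. None of the 6 windows held the CRE (TGACGTCA, in 1.55% of all windows), its core TGACG (17.8%), AP-1 (TGANTCA, 6.75%), the NRF1 motif (3.74%), the MEF2 motif (3.2%), the NPAS4 letters TCGTG (13.3%) or TATAAA (12.4%), all searched on both strands. A match to letters is not a measured site, and RefSeq also lists transcripts of Gria2, Grik2, Grik3 and Grik4 that begin 1392, 1407, 437 and 629 bases further upstream. The start in the count table lies 134 bases downstream of the RefSeq start for Grik3 and 12 bases upstream of it for Grik2, and the other starts shown are the same.

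The response to 4 h of bicuculline in DMSO divided the receptor genes. Gria2, Grik1 and Grik2 rose, Grik3 and Grik4 fell, and Gria1, Gria3, Gria4 and Grik5 did not pass the test. That made 5 of 9 genes called at an adjusted p under 0.05 (edgeR's quasi-likelihood test, Benjamini-Hochberg over all genes), where 49.2% of all genes tested were called, 23.7% higher and 25.5% lower. The median difference of the 9 genes was 0.06 (log2), against -0.02 over all genes. The share called among the receptor genes is thus near the background of this strong treatment. Under plain library totals 1820 of all genes were called higher and 7867 lower in place of 4014 and 4330, and the directions of Gria2, Grik1, Grik2, Grik3 and Grik4 were the same under every scaling tried. With all 21 libraries fitted, Grik1 and Grik2 were the receptor genes called (adjusted p = 0.00779 and 7.2e-04).

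Among the AMPA receptor genes, Gria2 had 1388, 1219.8 and 1077 CPM in the water libraries (replicates 1 to 3) and 1722, 1791 and 1579.9 CPM in the bicuculline libraries at 4 h. Every bicuculline library lay above every water library, as in 52.5% of all genes tested whose libraries did not overlap in either direction. The difference was 0.47 (log2, SE 0.09), a 1.38-fold rise with an adjusted p of 2.0e-04. It was 0.20 (adjusted p = 0.00425) under plain library totals and 0.56 without replicate 1 of DMSO water. In bulk cultures a change in the number of cells that transcribe a gene and a change in transcription per cell cannot be told apart.

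The other AMPA receptor genes overlapped between water and bicuculline at 4 h in DMSO. Gria1, which encodes GluA1, a subunit that is inserted into synapses with strong activity, had 957, 836 and 768 CPM in water and 687, 811 and 789.6 CPM in bicuculline, a difference of -0.16 (SE 0.10, adjusted p = 0.188). Without replicate 3 of DMSO water it was -0.26, with an adjusted p of 0.0477, and without replicate 1 it was -0.07 (0.581). Gria3 differed by -0.10 (95% interval -0.29 to 0.09), and by -1.9e-04 without replicate 1 of DMSO water. Gria4, which encodes a fast-gating subunit, differed by 0.18 (-0.04 to 0.41), and without replicate 1 of DMSO water by 0.34 (adjusted p = 0.00529). Of Gria1, Gria3 and Gria4, Gria4 changed sign under plain library totals (-0.080), where Gria1 was -0.43 and Gria3 -0.37 and both were called.

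Among the kainate receptor genes, Grik2 showed the largest difference of all 9 genes at 4 h in DMSO. It had 1610.1, 1149 and 1104 CPM in water and 2428, 2151 and 2110.2 CPM in bicuculline. The highest water library, replicate 1, had the largest share of long genes in its group, and it still lay below every bicuculline library. The difference was 0.79 (SE 0.13), a 1.73-fold rise with an adjusted p of 4.4e-05, and 0.99 without that water library. Grik1, whose product GluK1 is best known from interneurons and sensory neurons, had 222, 178 and 159 CPM in water and 273, 295 and 269 CPM in bicuculline. Its libraries did not overlap, and it rose by 0.58 (SE 0.12, 49.7% higher, adjusted p = 3.4e-04), or by 0.73 without replicate 1 of DMSO water.

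Grik3 and Grik4 went the other way. Grik3, which encodes the low-affinity subunit GluK3, had 154, 134 and 142 CPM in water and 117, 123 and 128 CPM in bicuculline. Grik4, which encodes the high-affinity subunit GluK4, had 167, 139 and 140.2 CPM in water and 128, 127 and 136 CPM in bicuculline. The groups did not overlap for either gene, but for Grik4 the gap between the closest libraries was small. Grik3 fell by 0.23 on the log2 scale (SE 0.07, adjusted p = 0.010) and Grik4 fell by 0.19 (SE 0.07, adjusted p = 0.0268). Under plain library totals they fell further, by 0.50 (adjusted p = 2.9e-07) and 0.46 (8.1e-07), more than Gria2 (0.20) and Grik1 (0.32) then rose. Neither call held in every fit. Without replicate 1 of DMSO water the differences were -0.17 (adjusted p = 0.0544) and -0.10 (0.213), and without replicate 1 of bicuculline they were -0.19 (0.0529) and -0.18 (0.0785). Without replicate 2 of bicuculline Grik4 was at -0.17 (0.0834), and with DESeq2 (0.0641) and median-of-ratios scaling (0.0649) it was also at -0.17. Grik5, which encodes the other high-affinity subunit and was the most abundant partner subunit per kb, had 71.4 to 85.4 CPM in water and 78.9 to 84.2 CPM in bicuculline, a difference of 0.06 (95% interval -0.11 to 0.22). Its sign turned without replicate 3 of DMSO water (-0.034) and under plain library totals (-0.21, adjusted p = 0.0115).

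**Figure D2:**
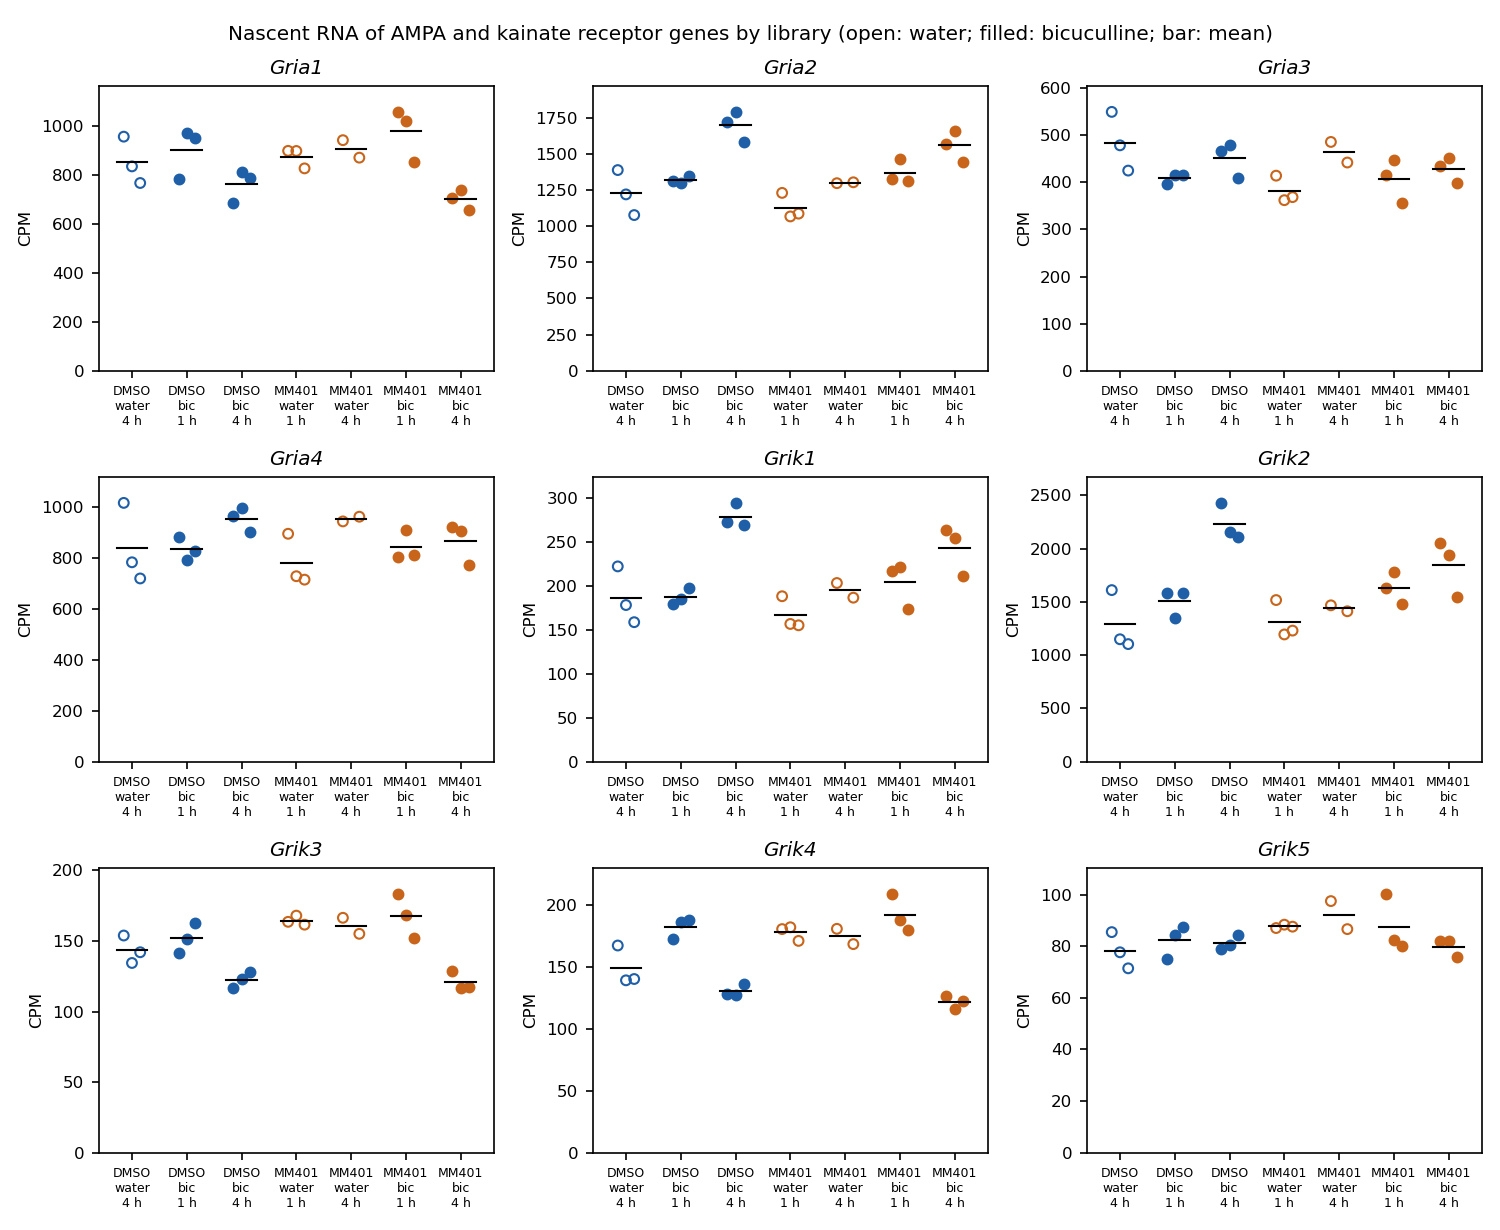
Nascent RNA (CPM, linear axes from 0) of each receptor gene in each of the 20 libraries; open circles are water, filled circles bicuculline ("bic"), blue DMSO, orange MM401, and the bar is the group mean. The 4 h bicuculline libraries lie above their DMSO water libraries for Gria2, Grik1 and Grik2 and below them for Grik3 and Grik4.

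After 1 h of bicuculline in DMSO Gria3 and Grik4 were called among the receptor genes, 2 of 9, where 44.6% of all genes were called, 20% higher and 24.5% lower (3396 and 4161 genes, or 1836 and 6818 under plain library totals). They were also the 2 genes whose libraries did not overlap, as in 47.4% of all genes. Grik4 had 173, 186 and 188 CPM at 1 h, above the 139 to 167 CPM of water, a rise of 0.29 (SE 0.07, adjusted p = 0.00163) that was 0.11 (0.125) under plain library totals and 0.038 (0.634) once the trend with gene length was removed. Gria3, at 396, 415 and 415 CPM, lay below all 3 water libraries (425 to 549.7 CPM) and fell by 0.25 (SE 0.09, adjusted p = 0.0371). That call was lost in 5 of 6 fits without 1 library (adjusted p 0.0613 to 0.201) and with DESeq2 (0.0854), while plain library totals (-0.43, 8.6e-06) and the length correction (-0.47, 2.2e-06) gave larger falls. The receptor genes called were Gria3 and Gria4 under plain library totals and Gria3, Gria4 and Grik1 with the length correction, all lower. The other 7 genes differed by between -0.01 and 0.22 and 5 of the 9 directions turned under plain library totals, and likewise 5 when the trend with gene length was removed. Grik2, at 1345 to 1585 CPM against 1104 to 1610.1 CPM, was 0.22 higher (adjusted p = 0.182) and 0.42 higher (adjusted p = 0.00654) without replicate 1 of DMSO water.

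The 2 time points were compared directly, which in DMSO also tests the difference between the responses since both used the same water libraries. From 1 h to 4 h of bicuculline Gria2 rose by 0.37 (SE 0.09), Grik1 by 0.57 (SE 0.12) and Grik2 by 0.57 (SE 0.13), with adjusted p of 0.00304, 6.3e-04 and 0.00201. Grik3 fell by 0.31 (SE 0.07, adjusted p = 0.00136) and Grik4 fell by 0.49 (SE 0.07, adjusted p = 1.0e-05). These 5 of 9 genes stood against 34.2% of all genes called, 19.1% higher and 15.2% lower (3233 and 2572 genes, or 2015 and 3131 under plain library totals), and each of the 5 was called in all 6 fits that left out 1 library. Gria1 was 0.24 lower at 4 h (adjusted p = 0.0647), and -0.33 (0.0184) without replicate 1 of bicuculline at 1 h. It was also called with DESeq2 (-0.26, 0.0355), under plain library totals (-0.33, 0.00102), with the length correction (-0.24, 0.00585) and in a fit on the groups alone (0.0319). Gria2 lost its call with all 21 libraries (0.32, 0.275).

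**Figure D3:**
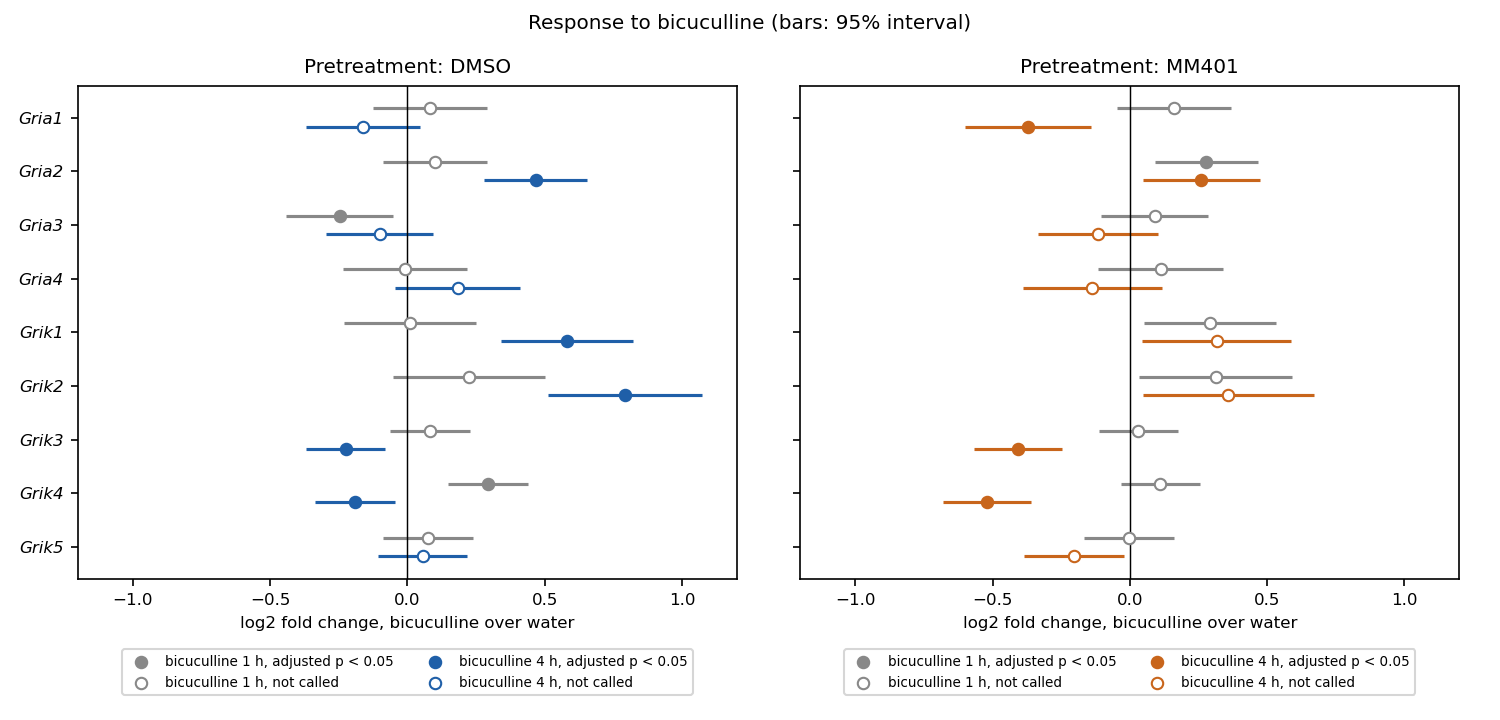
Log2 difference between bicuculline and water for each receptor gene in DMSO (left) and under MM401 (right), with 95% intervals; grey is 1 h, colour is 4 h, and filled points passed the test. In DMSO the 1 h response is against water at 4 h. Gria2, Grik1 and Grik2 lie to the right at 4 h in both panels, and Grik3 and Grik4 to the left.

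Under MM401, 4 of 9 receptor genes were called at 4 h, 1 higher and 3 lower, against 44.6% of all genes, 23% higher and 21.7% lower (3898 and 3674 genes, or 2794 and 4138 under plain library totals). With 2 water libraries, 8 of the 9 genes did not overlap between the groups, as in 66.6% of all genes. As in DMSO, Gria2, Grik1 and Grik2 had the 3 highest and Grik3 and Grik4 the 2 lowest differences. Gria2 was the one gene called higher, with 1297 and 1304 CPM in the 2 water libraries and 1567, 1661 and 1447 CPM in bicuculline (0.26, SE 0.10, adjusted p = 0.0422). Gria1 fell from 943 and 872 CPM to 707, 741 and 657 CPM, with no overlap (-0.37, SE 0.11, adjusted p = 0.00946). Grik3 fell from 166 and 155 CPM to 129, 117 and 117 CPM (-0.41, SE 0.08, adjusted p = 1.9e-04). Grik4 fell from 181 and 168 CPM to 127, 116 and 122 CPM (-0.52, SE 0.08, adjusted p = 1.2e-05), a 1.43-fold difference. Grik3 and Grik4 were called in all 5 fits that left out 1 library. Gria1 was not called without replicate 1 of MM401 water (-0.33, adjusted p = 0.0806). Gria2 was called in only 1 of those 5 fits and was 0.21 to 0.31 higher across them, with adjusted p up to 0.223 without replicate 2 of MM401 water, and under median-of-ratios scaling (0.25, 0.0714).

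Grik1 and Grik2 under MM401 lay above water at 4 h without passing the test. Grik2 had 1467 and 1412 CPM in water and 2055, 1936 and 1548 CPM in bicuculline (0.36, 95% interval 0.05 to 0.67, adjusted p = 0.0573), and Grik1 had 203 and 187 CPM in water and 264, 254 and 211 CPM in bicuculline (0.32, 0.05 to 0.59, adjusted p = 0.0542). For both the third bicuculline library was the lowest, and without it they were 0.47 (adjusted p = 0.0187) and 0.41 (0.0184) higher. Grik2 and Grik1 also passed under plain library totals (0.28 and 0.24, adjusted p = 0.0499 and 0.0298), with the length correction (0.41 and 0.33, 3.2e-04 and 7.1e-04), with the groups alone (0.0154 and 0.0175) and with the replicate block (0.0088 and 0.0058), and Grik2 with DESeq2 (0.0487). Grik5 differed by -0.21 (adjusted p = 0.0618; -0.32 and 0.0297 without replicate 2 of MM401 water), Gria3 by -0.12 (0.388) and Gria4 by -0.14 (0.380). Under plain library totals all 3 were called, at -0.28 (0.00583), -0.19 (0.0303) and -0.22 (0.0469), and Grik5 also with the length correction (-0.25, 0.0162) and with the groups alone (0.00645). With all 21 libraries Grik4 alone was called among the 9 genes (-0.41, 0.0288).

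At 1 h under MM401, where the water libraries were of the same time, Gria2 alone was called among the 9 genes, against 39.9% of all genes, 18.1% higher and 21.8% lower (3070 and 3699 genes, or 1276 and 6541 under plain library totals). It was also the 1 gene without overlap between its libraries, as in 51.1% of all genes. It had 1230.2, 1067 and 1087 CPM in water and 1328, 1463 and 1316 CPM in bicuculline, a rise of 0.28 (SE 0.09, adjusted p = 0.0176). The call was lost without replicate 2 of bicuculline (0.23, adjusted p = 0.0872), replicate 2 of water (0.24, 0.0923) or replicate 3 of water (0.26, 0.0715), and against MM401 water at 4 h (0.07, 0.601). It was also lost under plain library totals (0.066, 0.372) and with the length correction (0.15, 0.0887), and with all 21 libraries (0.28, 0.314). Grik1 was 0.29 higher (adjusted p = 0.0510) and Grik2 0.31 higher (0.0678), with 1 bicuculline library of each inside the range of water. Both passed the test without replicate 3 of bicuculline (0.40 and 0.39, adjusted p = 0.0122 and 0.0494) or replicate 1 of water (0.39 and 0.43, adjusted p = 0.0189 and 0.0244), and with DESeq2 (0.32 and 0.34, adjusted p = 0.0242 and 0.0342). They were 0.076 (0.461) and 0.099 (0.457) higher under plain library totals. Grik4 differed by 0.11 (0.218). Under plain library totals and with the length correction 5 of the 9 genes turned sign in this comparison: Gria1, Gria3, Gria4, Grik3 and Grik4.

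From 1 h to 4 h of bicuculline under MM401, Gria1 fell by 0.48 (SE 0.10, adjusted p = 7.0e-04), Grik3 fell by 0.47 (SE 0.07, adjusted p = 1.6e-05) and Grik4 fell by 0.66 (SE 0.07, adjusted p = 2.1e-07), 3 of 9 genes against 33.6% of all, 17.5% higher and 16% lower (2974 and 2717 genes, or 3603 and 1943 under plain library totals). Gria2, Grik1 and Grik2 were 0.19 (adjusted p = 0.122), 0.25 (0.104) and 0.18 (0.332) higher. Grik1 passed without replicate 3 of bicuculline at 4 h (0.34, adjusted p = 0.0384) and with the replicate block (0.25, 0.0342). All 3 passed with the length correction, at 0.25 (adjusted p = 0.00554), 0.45 (6.5e-06) and 0.44 (6.0e-05). Plain library totals called Gria2 (0.26, adjusted p = 8.5e-04) and Grik1 (0.33, 0.00176). The fall of Gria1 was smaller with the length correction (-0.30, 0.00118) and was not called with all 21 libraries (-0.51, 0.0634). When each time was set against its own water the same 3 genes were called, against 12.9% of all genes, 6.12% higher and 6.78% lower (1038 and 1149 genes, or 1748 and 711 under plain library totals). Of genes of 100 to 300 kb, the class of Grik3, 19.9% were called lower there. Of genes of at least 300 kb, the class of Gria1 and Grik4, 31.4% were. In the direct comparison of 4 h with 1 h of bicuculline those shares were 34.7% and 45.7%. The response at 4 h minus that at 1 h was -0.53 (SE 0.15, adjusted p = 0.0203) for Gria1, -0.44 (SE 0.10, 0.00623) for Grik3 and -0.63 (SE 0.10, 2.7e-04) for Grik4. Gria1 lost this call without replicate 1 (adjusted p = 0.0630) or 2 (0.0501) of bicuculline at 1 h, replicate 3 of bicuculline at 4 h (0.0571) or replicate 1 of water at 4 h (0.0913). With the length correction these differences were -0.30 (0.0478), -0.27 (0.0284) and -0.36 (0.0056) and Grik2 was called as well, and with all 21 libraries none of the 3 was called (adjusted p 0.622, 0.319 and 0.135). In MM401 water itself 0 of 9 genes were called between 1 h and 4 h, against 0.867% of all genes. Gria3 and Gria4 had an unadjusted p under 0.05 there, 2 of 9 against 10% of all genes, and DESeq2 also called 0 of 9.

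MM401 against DMSO gave no call on any receptor gene at matched treatment. In water at 4 h, where 0.0826% of all genes were called, the 9 genes differed by between -0.06 and 0.24, and Grik1 under plain library totals and Gria1 and Grik1 with the length correction turned sign. Grik3, Grik4 and Grik5 had an unadjusted p under 0.05, 3 of 9 against 12.9% of all genes, and DESeq2 also called 0 of the 9. In bicuculline they differed by between -0.01 and 0.15 at 1 h, where 0.0059% of all genes were called and 1 of the 9, Grik3, had an unadjusted p under 0.05 (3.18% of all genes). At 4 h they differed by between -0.27 and -0.02, 0% of all genes were called, and 0 of the 9 had an unadjusted p under 0.05 (1309 genes, 7.72% of all). These directions depended on the scaling, since 4 of the 9 turned at 4 h under plain library totals (Gria3, Grik3, Grik4 and Grik5), and with the length correction 5 turned (these and Gria1). DESeq2 called 0 of the 9 at either time. In the test of the difference between the 4 h responses, edgeR called 0 genes in all, 2552 (15%) had an unadjusted p under 0.05, among them Grik2, Grik4 and Grik5, and DESeq2 called 472. For the 9 receptor genes the response under MM401 minus that in DMSO ran from -0.43 to -0.02, with the sign turned for Gria3 and Grik3 under plain library totals and for Gria1, Gria3 and Grik3 with the length correction. Grik2 stood at -0.43 (95% interval -0.85 to -0.02, adjusted p = 0.315), Grik4 at -0.33 (-0.55 to -0.11, 0.229) and Gria4 at -0.32 (-0.66 to 0.02, 0.355). DESeq2 called Grik4 (-0.36, adjusted p = 0.0350).

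Of the libraries left out in turn, replicate 1 of DMSO water moved the counts of the comparison in water and of the difference between the 4 h responses the furthest. Without it, 1272 genes were called between MM401 and DMSO in water at 4 h, in place of 14, among them Gria4 (0.34, adjusted p = 0.0480), Grik4 (0.32, 0.0110) and Grik5 (0.30, 0.0413). The difference between the 4 h responses then called 1551 genes in place of 0, among them Gria4 (-0.48, adjusted p = 0.0305), Grik2 (-0.63, 0.0240) and Grik4 (-0.42, 0.0101). In every other fit that left out 1 library, 0 of the 9 genes were called for that difference. The fit without replicate 1 kept the DMSO water libraries with the lowest shares of long genes.

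The makeup of each family was also expressed as a share of its summed counts per kb, which does not depend on library scaling. Gria2 took 60.4% ± 0.595 (SD, n = 3) of the AMPA receptor signal in DMSO water at 4 h, 62.5% ± 0.853 at 1 h of bicuculline and 68.1% ± 0.841 at 4 h. Under MM401 it took 60.4% (59.8% and 61.0%) in water at 4 h and 68.0% ± 0.485 after 4 h of bicuculline. The share of Gria1 was 16.02% in DMSO water and 16.04% in MM401 water at 4 h, and 11.7% with bicuculline in both arms, and no 4 h bicuculline library reached the lowest water library in either arm. That of Gria3 was 10.4% and 7.92% in the DMSO groups and 9.41% and 8.17% in the MM401 groups. The Gria2 share thus lay within 1 SD of the same value in both arms at 4 h, while the log2 difference of Gria2 itself was 0.47 in DMSO and 0.26 under MM401. No test was run on shares.

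In the kainate family Grik2 took 40.3% ± 2.75 (SD, n = 3) in DMSO water and 52.8% ± 2.53 after 4 h of bicuculline, and 40.1% and 49.2% ± 2.36 under MM401. Grik3 took 14.2% in DMSO water and 9.06% with bicuculline, and 13.9% and 10.1% with MM401. Grik4 took 7.71% and 5.06%, and 7.96% and 5.37% with MM401. Grik5, whose own level was not called, took 27.5% and 21.4%, and 28.5% and 23.8% with MM401. Summed over the family, kainate receptor genes had 4.57 CPM per kb ± 0.665 in DMSO water and 6.07 ± 0.176 at 4 h of bicuculline, and AMPA receptor genes had 16.8 ± 2.21 and 20.5 ± 1.16. Unlike the shares, these sums depend on library scaling and are given after TMM scaling alone. TMM factors were 1.02 to 1.16 in DMSO water and 0.906 to 0.921 in 4 h bicuculline, so both rises are smaller under plain library totals. Under MM401 the sums overlapped between the groups, at 4.98 and 5.36 CPM per kb in water and 4.79 to 5.81 in bicuculline for the kainate family, and at 17.6 and 17.9 in water and 17.4 to 20.02 in bicuculline for the AMPA family.

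**Figure D4:**
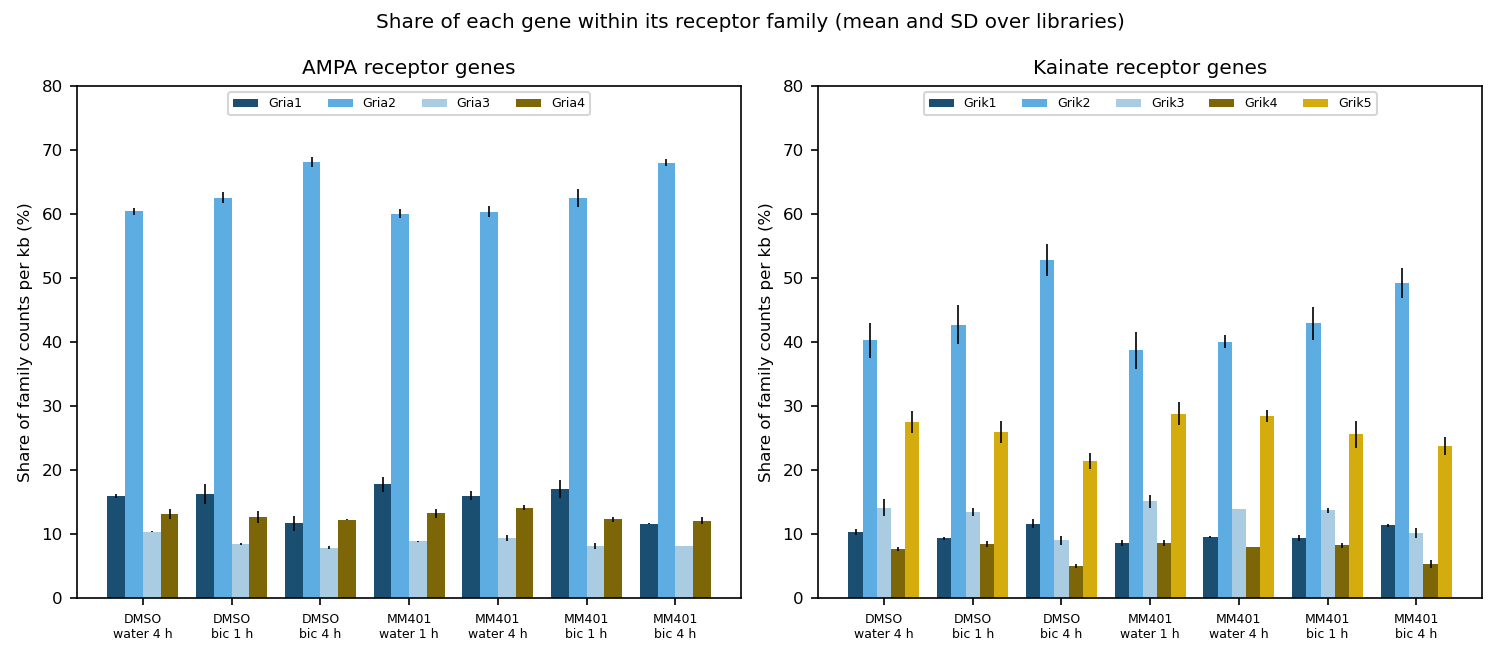
Share of each gene in the summed counts per kb of its family (percent), for AMPA receptor genes (left) and kainate receptor genes (right) in the 7 groups; bars are means and error bars SD over 3 libraries (2 for MM401 water at 4 h). Gria2 and Grik2 take larger shares after 4 h of bicuculline than in the water group of the same arm, and Gria1, Grik3, Grik4 and Grik5 smaller ones.

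Gene length moved with the response of all genes, and these genes are long. The median difference at 4 h in DMSO was 0.23 over genes of 100 to 300 kb and 0.24 over genes of at least 300 kb, against -0.02 over all genes. Under MM401 the same medians were 0.09 and -0.05, against 0.02. Grik2 and Grik1, at 0.79 and 0.58 in DMSO, and Gria2, at 0.47, thus lay above the median of genes of their length, and Grik3 and Grik4, at -0.23 and -0.19, below it. With the length trend removed all 5 kept their direction and their call at 4 h in DMSO, with Gria2 at 0.28, Grik1 at 0.34 and Grik2 at 0.53 higher and Grik3 at -0.45 and Grik4 at -0.44, and Gria1 (-0.40) and Gria3 (-0.33) were called lower as well. The falls of Grik3 and Grik4 then exceeded the rises of Gria2 and Grik1. The part of gene length in these results was not tested further.

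Markers of cell types differed too. From water to 4 h of bicuculline in DMSO the summed level of the 5 excitatory markers went from 489 to 625 CPM up to 947 to 1050.3 CPM (3 of 5 called, all higher), and that of the 5 GABAergic markers from 329 to 346 CPM up to 643 to 684 CPM (2 of 5, higher). The 4 neuronal markers went from 4502 to 5657 CPM up to 6677 to 7180.5 CPM (3 higher, 1 lower). The 6 astrocyte markers stayed between 1111 and 1579 CPM in water and 1307 and 1435 CPM in bicuculline (0 of 6 called). The 6 oligodendrocyte lineage markers had 160.4 to 187 CPM in water and 194 to 209 CPM in bicuculline (3 higher), and the 5 microglial markers 26.0 to 30.1 CPM and 31.1 to 36.6 CPM (1 higher). Under MM401 the ranges were 619 to 623 CPM and 871 to 984 CPM for excitatory markers (3 of 5 higher), 333 to 387 CPM and 588 to 648 CPM for GABAergic markers (4 of 5 higher), and 1079.5 to 1192 CPM and 1299 to 1375 CPM for astrocyte markers (3 of 6 higher). They were 5323 to 5463 CPM and 6030 to 6603 CPM for neuronal markers (2 higher, 1 lower), 167 to 178 CPM and 205 to 216 CPM for oligodendrocyte lineage markers (3 of 6 higher), and 25.1 to 28.5 CPM and 35.3 to 39.9 CPM for microglial markers (3 of 5 higher). None of the 6 sums overlapped between water and bicuculline there. None of these genes was at 0. At 4 h 49.2% of all genes were called without MM401 and 44.6% with it. The part of these markers in the receptor gene results was not tested.

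The proteins that assemble with, carry and modify these receptors are encoded by genes in 5 lists of 39 genes, all tested. At 4 h in DMSO 16 rose and 11 fell, 27 of 39, against 49.2% of all genes (23.7% higher and 25.5% lower), with a median of 0.10 (all genes -0.02). Under MM401 9 rose and 13 fell, against 44.6% of all genes (23% higher and 21.7% lower), with a median of -0.06 (all genes 0.02). At 1 h the counts were 11 higher and 8 lower in DMSO (44.6% of all genes called) and 11 higher and 6 lower under MM401 (39.9%). Without 1 library in turn the genes called at 1 h numbered 13 to 22 in DMSO and 11 to 17 under MM401, the 11 without replicate 2 of MM401 water at 1 h, and with all 21 libraries 8 were called at 1 h under MM401. At 4 h they numbered 23 to 26 in DMSO and 20 to 22 under MM401.

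Kainate auxiliary subunits and ligands had 4 of 4 genes called higher at 4 h in each arm, against 23.7% of all genes called higher in DMSO and 23% under MM401, with medians of 0.81 and 1.00. The call of C1ql2 was lost in several fits, given below. C1ql3, a secreted C1q-like protein that links kainate receptors to presynaptic neurexin, had 42.5 CPM ± 3.86 (SD, n = 3) in DMSO water and 163 CPM ± 21.98 at 4 h of bicuculline, a rise of 1.94 (SE 0.12, adjusted p = 5.8e-10). It was already 1.99 higher at 1 h in DMSO and 1.83 higher at 1 h under MM401, and was 2.23 higher at 4 h under MM401. The antisense neighbour Pter overlaps 17.5% of C1ql3 and had 8.06% of its count. Neto1 and Neto2, the transmembrane auxiliary subunits that slow kainate receptor currents, rose by 0.58 (SE 0.07) and 0.65 (SE 0.10) in DMSO and by 0.43 and 0.62 under MM401. Neto1 falls outside the naming rule and was added after its values were seen. At 1 h under MM401 they were 0.28 (adjusted p = 0.00320) and 0.36 (0.0102) higher, and Neto2 lost that call without replicate 2 of bicuculline (0.28, 0.0644) or of water (0.31, 0.0570). Both lost it under plain library totals (0.069 and 0.14, adjusted p = 0.334 and 0.134) and against MM401 water at 4 h (0.12 and 0.27, adjusted p = 0.239 and 0.0726). C1ql2 rose by 0.98 (SE 0.32, adjusted p = 0.0134) but stood at only 0.187 CPM in water and 0.377 CPM in bicuculline, and it lost the call without replicate 1 of DMSO water (0.76, 0.0625) or replicate 3 of bicuculline (0.83, 0.0666), and under plain library totals (0.69, 0.0771). Under MM401 C1ql2 was 1.38 higher, and 1.27 (0.0615) without replicate 2 of water.

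AMPA auxiliary subunits went both ways, with 3 of 16 genes higher and 7 lower at 4 h in DMSO (median -0.19; all genes 23.7% and 25.5%) and 1 higher and 8 lower under MM401 (median -0.29; all genes 23% and 21.7%). Gsg1l, a claudin-like subunit that dampens AMPA receptor currents, went from 37.8 CPM ± 2.44 (SD, n = 3) in water to 11.9 CPM ± 1.40 in DMSO (-1.66, SE 0.12, adjusted p = 1.1e-09), and it fell by 1.65 under MM401. Prrt1, which binds AMPA receptors at and outside synapses, fell by 1.02 and Prrt2 fell by 0.57 in DMSO, and Prrt1 fell by 0.83 under MM401, where Prrt2 differed by -0.27 (adjusted p = 0.165; -0.51 and 0.0291 without replicate 2 of MM401 water). Prrt1 had fallen by 0.96 at 1 h in DMSO. Among the TARPs, which traffic AMPA receptors and slow their closing, Cacng3 rose by 0.70 (SE 0.16), Cacng5 by 0.46 (SE 0.09) and Cacng7 by 0.17 (SE 0.06, adjusted p = 0.0248). Cacng5 lost its call under plain library totals (0.18, adjusted p = 0.183). At 1 h it was 0.93 higher in DMSO and 0.78 higher under MM401. At 4 h under MM401 Cacng5 rose by 0.50, Cacng3 differed by 0.33 (adjusted p = 0.143) and Cacng7 by -0.09 (0.277). Cacng7 was not called without replicate 2 (0.17, adjusted p = 0.0554) or 3 (0.14, 0.0919) of bicuculline or replicate 2 (0.12, 0.174) or 3 (0.12, 0.164) of DMSO water, and its sign turned under plain library totals.

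All 5 AMPA receptor assembly factors were called at 4 h in DMSO, 2 higher and 3 lower, against 49.2% of all genes. Frrs1l, which is needed to build the receptor in the endoplasmic reticulum, fell by 0.62 (SE 0.07, adjusted p = 8.8e-08), Porcn fell by 0.63 and Cpt1c fell by 0.26. Frrs1l was already 0.77 lower at 1 h in DMSO and 0.81 lower at 1 h under MM401, and 0.70 lower at 4 h under MM401. Sacm1l, a phosphoinositide phosphatase, rose by 0.64 (SE 0.06) and Abhd6, a lipase that restrains receptor assembly, rose by 0.23. At 4 h under MM401 Porcn fell by 0.79, Cpt1c fell by 0.24 (adjusted p = 0.0289) and Sacm1l rose by 0.39, and Abhd6 differed by 0.07 (0.461). Cpt1c under MM401 was not called without replicate 2 (adjusted p = 0.0773) or 3 (0.0660) of bicuculline or replicate 1 of water (0.179), or with the length correction (0.0508). In DMSO Cpt1c lost its call without replicate 1 of bicuculline (-0.22, adjusted p = 0.0507) and with the length correction (-0.15, 0.153), and Abhd6 without replicate 2 of DMSO water (0.17, 0.0661), and Abhd6 turned sign under plain library totals.

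Of 11 scaffold and trafficking genes 4 rose and 1 fell at 4 h in DMSO, 5 of 11 against 49.2% of all genes called. Dlg1, which encodes SAP97, a partner of GluA1, rose by 1.07 (SE 0.09, adjusted p = 3.7e-09) from 439 CPM ± 62.5 to 919 CPM ± 36.8 (SD, n = 3) and by 0.69 under MM401, and was 0.57 higher at 1 h in DMSO and 0.61 higher at 1 h under MM401. Dlg2 rose by 0.51, Grip1 by 0.37, and Epb41l1 fell by 0.20. Under MM401 Epb41l1 fell by 0.36 (adjusted p = 9.8e-04), while Dlg2 differed by -0.05 (0.817) and Grip1 by -0.04 (0.800). Dlg2 lost its call without replicate 2 (0.41, adjusted p = 0.0533) or 3 (0.35, 0.0655) of DMSO water, and Epb41l1 without replicate 1 of DMSO water (-0.16, 0.0972) or replicate 1 (-0.16, 0.112) or 2 (-0.19, 0.0679) of bicuculline, and in DESeq2 (-0.18, 0.0580). Grip1 lost its call under plain library totals (0.10, 0.198) and with the length correction (0.10, 0.115). The antisense neighbour Helb had 0.855% of the count of Grip1, and Chrnb2 2.86% of that of Adar. All 3 genes of the ADAR family rose at 4 h in DMSO: Adar by 0.58 (SE 0.08), Adarb1 by 0.36 (SE 0.06) and Adarb2 by 0.36 (SE 0.11). Adarb1 encodes ADAR2, the enzyme that edits the calcium-gating codon of Gria2 transcripts, and it rose by 0.25 under MM401 (adjusted p = 0.00364), or 0.17 (0.137) without replicate 1 of MM401 water. Adar rose by 0.39 under MM401, and Adarb2 differed by -0.03 (0.862). Adarb2 lost its call without replicate 2 (0.28, 0.0831) or 3 (0.25, 0.0950) of DMSO water. Under plain library totals Adarb1 (0.089, 0.126) and Adarb2 (0.097, 0.256) were not called in DMSO, nor was Adarb2 with the length correction (0.10, 0.112).

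**Figure D5:**
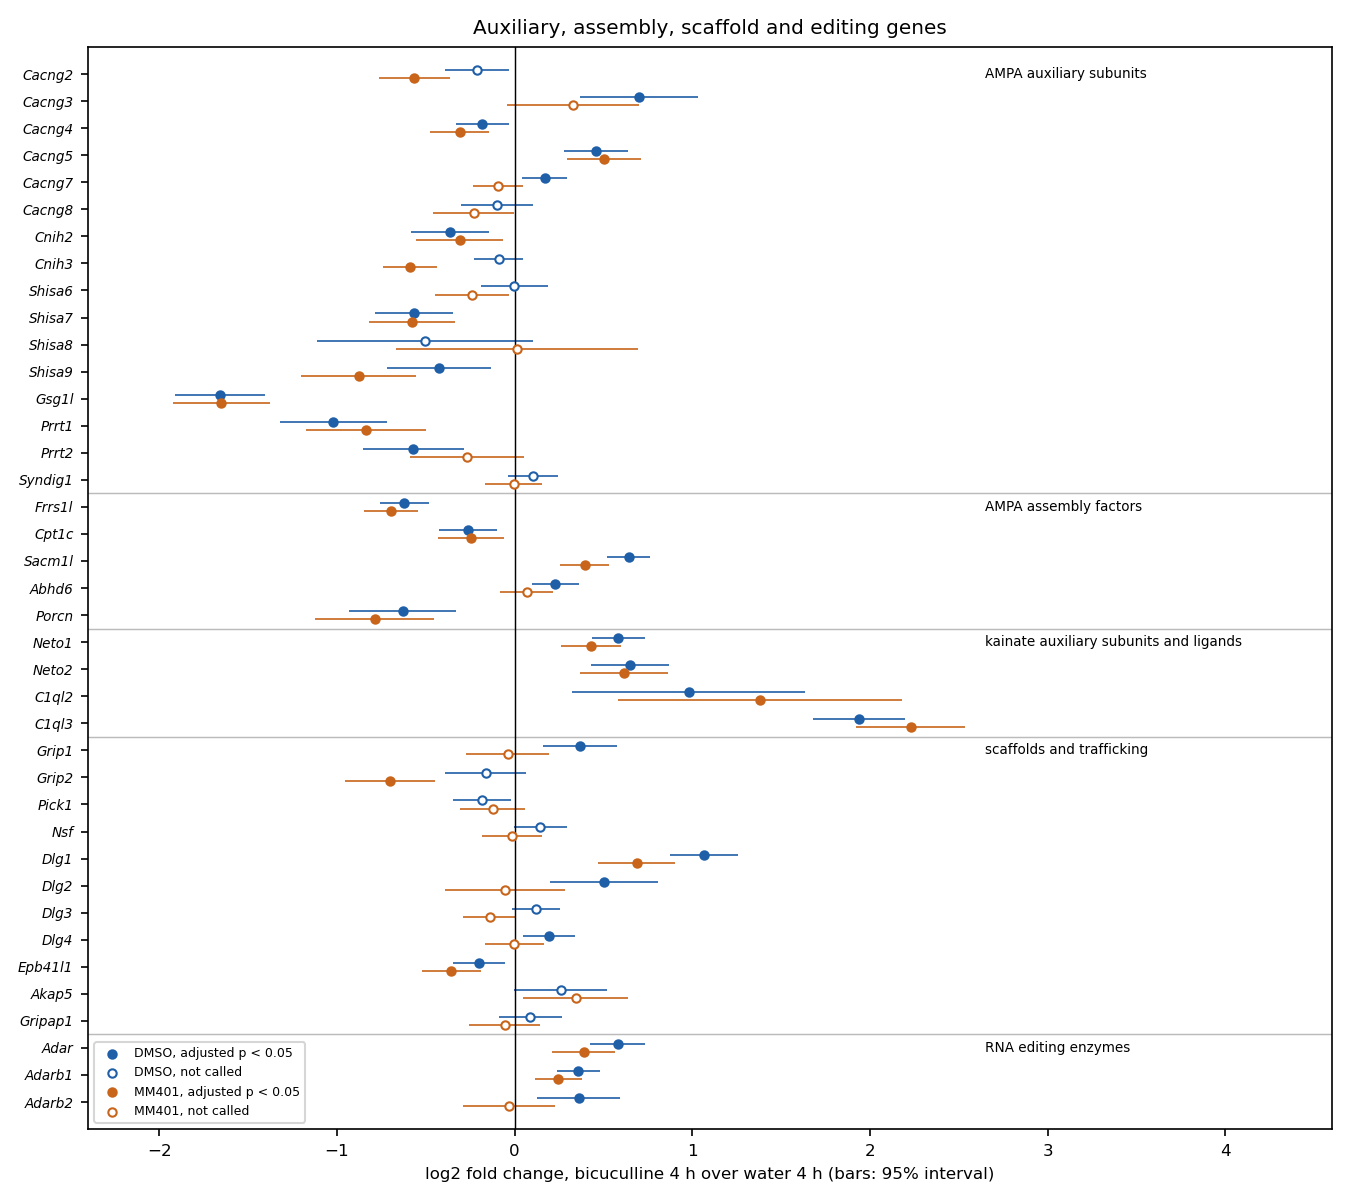
Log2 difference between bicuculline and water at 4 h for the 39 genes of the auxiliary, assembly, scaffold and editing lists, in DMSO (blue) and under MM401 (orange), with 95% intervals; filled points passed the test. C1ql3 is the furthest to the right and Gsg1l the furthest to the left in both arms.

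The genes whose group means ran most like those of a receptor gene were sought for the 4 receptor genes that spanned at least 0.5 on the log2 scale over the 7 groups. Likeness was the root mean square difference of centred log2 group means. For Gria2 the nearest were Ptpra (0.026), Cap2 (0.028) and Pid1 (0.031), for Grik1 Ust (0.032), Epha7 (0.033) and Pcdh11x (0.033), for Grik2 Gphn (0.036), Uhrf1bp1l (0.037) and Evl (0.038), and for Grik4 Msra (0.033), Mdn1 (0.041) and Rph3a (0.048). Gphn encodes gephyrin, the scaffold of inhibitory synapses. These are descriptions over 7 group means that share libraries and depth.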

How the data were processed

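The deposited table holds raw read counts per whole gene, per the file headers. The submitters' processing notes name mm10, Bowtie2, featureCounts, UMI-tools, deepTools and DESeq2, and the use of strand, duplicates and multimapping reads is not given in the sources used here. Groups came from the sample labels. Counts of 20 libraries were fitted together in edgeR 4.0.16 (R 4.3.3, robust quasi-likelihood, filterByExpr at 10 counts per library and 15 in total, TMM scaling), with Benjamini-Hochberg adjustment over 16959 genes in each of 12 comparisons. Total counts ranged from 49886348 to 87939384. The receptor genes, gene lists and tests were chosen with earlier results of these data known. In each list the text names up to 3 called genes in each direction, by size of change at 4 h in DMSO, with their values at 4 h under MM401 and, for some, at 1 h. Alternatives were DESeq2 1.42.0, other scalings, no filter, a correction for gene length, the groups alone, all 21 libraries, a replicate block and leaving out each library. Replicate pairs differed by 6.40 to 82.7 in chi-square per degree of freedom, so no library was counted as a duplicate. Tested on simulated data for the 4 h comparison in DMSO (15287 genes), the procedure recovered 67% of 100 genes changed by 0.5 on the log2 scale and 99% of 100 changed by 1, with 13 false calls. A gene list of the design is not reported here. The labels do not say what a replicate number marks. Correlations of deviations between libraries of the same number were held to a cutoff of 0.1. All 3 passed it only for MM401 against DMSO in bicuculline at 4 h (0.107 to 0.172), where the block called 0 genes. For bicuculline at 4 h against 1 h in DMSO they were 0.0898 to 0.199, so the cutoff does not settle pairing elsewhere.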

Additional observations from a re-analysis of the deposited data

Results flagged for a closer look

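In DMSO the responses to bicuculline at 4 h and at 1 h differed, by the test of the difference, for 5 receptor genes. The difference was 0.37 for Gria2, 0.57 for Grik1, 0.57 for Grik2, -0.31 for Grik3 and -0.49 for Grik4 (log2). Both responses use the same water libraries at 4 h, so these values are also the direct differences between the 2 bicuculline groups. Under MM401, where each time had its own water, the response at 4 h minus that at 1 h differed for Gria1 (-0.53), Grik3 (-0.44) and Grik4 (-0.63).

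The shallow MM401 water library at 4 h that entered no comparison held 383 counts of Gria4, or 1209 CPM on plain library totals, with an exact 95% Poisson interval of 1091 to 1337 CPM that covers counting error only. The highest water library in the comparisons had 1035 CPM.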

How the results depend on the processing

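Over the alternatives that kept all samples of a comparison, Gria2, Grik1 and Grik2 higher and Grik3 and Grik4 lower at 4 h in DMSO kept their direction. Among 47 reported differences of receptor genes, DESeq2 left 40 with the same direction and on the same side of the threshold, median-of-ratios scaling 43, plain totals 31, gene length correction 31, the groups alone 39, all 21 libraries 32, the replicate block 42 and no filter 47. The cause of these changes was not tested, except that leaving out a library leaves fewer samples. Plain totals moved the median of all genes to -0.23 and -0.30 at 1 h and 4 h in DMSO and to -0.21 and -0.06 under MM401.

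The main changes in receptor genes called were as follows. DESeq2 called 1 at 1 h and 4 at 4 h in DMSO (without Grik4), 5 at 4 h under MM401, 6 from 1 h to 4 h in DMSO, 3 at 1 h under MM401 and 1 for the difference between the 4 h responses (472 genes in all), with 166, 13 and 265 genes in all for MM401 in water, MM401 in bicuculline at 1 h and MM401 water over time. Median-of-ratios scaling called 1 at 1 h in DMSO and 2 under MM401, 4 at 4 h in DMSO (without Grik4) and 3 under MM401 (without Gria2). Plain totals called Gria3 and Gria4 at 1 h and 8 at 4 h in DMSO, 2 and 9 at 1 h and 4 h under MM401 (at 1 h Grik3 and Grik5, not Gria2) and 5 from 1 h to 4 h under MM401, with 4 genes in all for MM401 in water, and gave levels of 0.708 and 1.38 CPM per kb for Grik3 and Grik5 in DMSO water. The groups alone called 1 at 1 h and 4 at 4 h in DMSO (without Grik4) and 3 and 7 at 1 h and 4 h under MM401, with 0 genes in all for MM401 in water and 328 for MM401 water over time. All 21 libraries called 0 and 2 at 1 h and 4 h in DMSO, 0 and 1 under MM401 and 0 for the difference between times under MM401 (886 genes in all), with 0 for MM401 in water, 3745 and 3646 from 1 h to 4 h in DMSO and under MM401 and 19 for MM401 water over time. Length correction called Gria3, Gria4 and Grik1 at 1 h in DMSO, 7 at 4 h in each arm, 8 from 1 h to 4 h under MM401, 4 for the difference between times under MM401 (adding Grik2) and 235 genes in all for MM401 water over time. Against MM401 water at 4 h, 0 were called at 1 h under MM401.

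The replicate block called 3 receptor genes at 1 h under MM401 and 6 at 4 h, among them Grik1 (0.37, adjusted p = 0.0058) and Grik2 (0.41, 0.0088), and 4 genes in all for MM401 in bicuculline at 1 h. From 1 h to 4 h under MM401 the block called 4 receptor genes, among them Grik1 (0.25, adjusted p = 0.0342). With the block and length correction 23 and 8 genes were called for MM401 in water and in bicuculline at 1 h.

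Under plain totals and under length correction, directions turned for 5 of the 9 receptor genes at 1 h in each arm. Among the differences given by gene, they turned under plain totals for Gria2 (-0.082) at 1 h in DMSO, for Gria4 (-0.080), Grik5 (-0.21), Cacng7 (-0.10) and Abhd6 (-0.043) at 4 h in DMSO, for Grik4 (-0.10) at 1 h under MM401 and for Abhd6 (-0.0052) at 4 h under MM401. They turned under length correction for Gria2 (-0.058) and Grik2 (-0.050) at 1 h and Gria4 (-0.055) and Grik5 (-0.055) at 4 h in DMSO and Grik4 (-0.14) at 1 h under MM401. At 4 h under MM401 Dlg2, Grip1 and Adarb2 turned under length correction (0.046, 0.0052 and 0.0061), Dlg2 with the block (0.0042), and Gria3 (0.067), Dlg2 (0.198), Grip1 (0.104) and Adarb2 (0.133) with all 21 libraries.

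Without 1 library in turn, receptor genes called ranged from 1 to 2 and 3 to 6 at 1 h and 4 h in DMSO, 0 to 3 and 2 to 6 under MM401, 5 to 6 and 3 to 4 from 1 h to 4 h in DMSO and under MM401, and 2 to 3 for the difference between times under MM401 (1310 to 2495 genes in all). They ranged from 0 to 3 for MM401 in water (0 to 1272 genes) and 0 to 3 for the difference between the 4 h responses (0 to 1551 genes), with 0 to 2 genes for MM401 in bicuculline at 1 h and 14 to 140 for MM401 water over time. Grik5 at 4 h in DMSO ranged from -0.034 to 0.12, and at 4 h under MM401 Dlg2 ranged from -0.12 to 0.064, Grip1 from -0.088 to 0.048 and Adarb2 from -0.095 to 0.055. Where an arm kept 1 library, that library was assumed to vary like the other groups. Counts were few in the shallow library and for genes such as C1ql2, and the effect of depth was not tested.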

Other observations

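The shallow MM401 water library at 4 h, which entered no comparison, held 27 to 542 counts per receptor gene. On plain library totals Grik2 stood at 1711 CPM (exact 95% Poisson interval 1570 to 1861, counting error only), against 1276 to 1642 CPM in the other water libraries, and Grik5 at 120 CPM (84.9 to 165) against 82.6 to 101 CPM. Gria1 stood at 512 CPM (436 to 597) against 888 to 989 CPM, Gria2 at 707 CPM (618 to 806) against 1175 to 1416 CPM, and Gria3, Grik1, Grik3 and Grik4 also lay below the lowest water library.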
